A study of Mus musculus with 4 samples.

Results

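Cish, Socs1, Socs2, Socs3, Pim1, Pim2 and Pim3 were followed through the myeloid, dendritic and endothelial cells of the mouse colon, with and without the growth factor gene Csf2. They are 7 genes of 32285 features, chosen because cytokine receptors that act through STAT factors are known to switch them on, and all 7 were measured in all 4 libraries. The libraries held single-cell counts of RNA 3' ends from cells enriched for CD11b, an integrin of monocytes, macrophages and part of the dendritic cells. They were 1 library each from Csf2-/- solitary isolated lymphoid tissues (SILT, small lymphoid aggregates in the gut wall), wild-type (Csf2+/+) SILT, Csf2-/- lamina propria (the tissue layer beneath the gut epithelium) and wild-type lamina propria. All mice of both genotypes also carried the reporter alleles CX3CR1-GFP/+ and CCR2-RFP/+ and were untreated. The series design text gives 5 mice and does not say whether their cells were pooled. Sex and age are not given in the sources used here.

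A cytokine such as CSF2 (GM-CSF) brings its receptor chains together, JAK kinases bound to them phosphorylate STAT factors, and the STAT dimers enter the nucleus and switch on target genes; CSF2 acts mainly through JAK2 and STAT5. Cish (CIS) and the Socs genes encode inhibitors that feed back on this pathway: CIS and SOCS2 bind phosphorylated receptors, SOCS1 and SOCS3 also block JAK activity, and all of them can bring in a ubiquitin ligase. The PIM genes encode serine and threonine kinases that are active once made, promote survival and growth, and are induced by STAT5 and STAT3. Cish is a textbook STAT5 target, and Socs3 is best known as the inhibitor of gp130 cytokines acting through STAT3.

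The promoters of Cish and Socs3 are shown because these were the members whose window held the spaced palindrome to which STAT dimers bind. The letters searched were TTCNNNGAA, which read the same on both strands, in 300 bases reaching from 250 before to 50 after the annotated start (RefSeq, GRCm38.p6). Of all 32851 windows of this kind, 2726 (8.30%) held at least 1 match and 150 (0.457%) held 2 or more. The Cish window, chr9:107296409-107296708 on the plus strand, held 2 matches, 1 beginning 0 and 1 beginning 11 bases after the start. The Socs3 window, chr11:117969317-117969616 on the minus strand, held 1 match, 154 bases before the start. Capitals mark the matches, and both sequences run 5′ to 3′ on the gene's strand.
Cish: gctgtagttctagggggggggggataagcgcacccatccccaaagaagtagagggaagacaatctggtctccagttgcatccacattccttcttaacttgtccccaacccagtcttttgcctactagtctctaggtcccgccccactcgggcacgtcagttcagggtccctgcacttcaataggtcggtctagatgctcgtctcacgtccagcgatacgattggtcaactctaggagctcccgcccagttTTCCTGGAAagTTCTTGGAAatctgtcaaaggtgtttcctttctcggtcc
Socs3: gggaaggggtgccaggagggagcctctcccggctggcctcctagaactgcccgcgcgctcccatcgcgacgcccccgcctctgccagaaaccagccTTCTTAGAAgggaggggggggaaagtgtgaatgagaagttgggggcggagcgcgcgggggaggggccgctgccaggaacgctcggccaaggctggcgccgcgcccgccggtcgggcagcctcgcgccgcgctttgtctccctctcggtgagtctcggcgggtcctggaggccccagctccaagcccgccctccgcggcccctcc
The windows of Socs1, Pim1, Pim2 and Pim3 held 0 matches, and 6 of the 7 members had a window in the table. A match describes the letters and is neither a shown binding site nor a cause of any value given here.

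By GENCODE M21 on GRCm38, Cish lies on chromosome 9 (107296026 to 107302784), Socs1 on chromosome 16 (10782240 to 10785536), Socs2 on chromosome 10 (95385362 to 95417180) and Socs3 on chromosome 11 (117966079 to 117970047). Pim1 lies on chromosome 17 (29490753 to 29496112), Pim2 on the X chromosome (7878262 to 7883432) and Pim3 on chromosome 15 (88862186 to 88865726). Counts were made over whole genes, so no exon or transcript was told apart.

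Of 17905 deposited barcodes, 16352 cells were analysed: 2368 and 7578 from Csf2-/- and wild-type SILT, with a median of 7184 and 5816.5 UMIs per cell, and 1967 and 4439 from Csf2-/- and wild-type lamina propria, with a median of 8892 and 9961. Only 37 barcode sequences occurred in more than 1 library. Csf2 itself had 0 UMIs in the Csf2-/- SILT library and 24 in the wild-type SILT library, where they lay in 11 cells, and 0 in the Csf2-/- against 2 in the wild-type lamina propria library. Clusters were named from markers, and values are sums of UMIs over the cells of a class in 1 library, scaled to a common total of UMIs in each class and library (CPM). There are no replicates, as each group is 1 library, so no p-value is given. All intervals are 95% intervals that cover counting error alone, Poisson for levels and conditional binomial for ratios. A ratio is Csf2-/- over wild type, was taken with at least 20 UMIs over both libraries and at least 30 cells in each, and is called higher or lower from 1.5-fold on.

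The classes compared were macrophage-like cells (394 and 989 in Csf2-/- and wild-type SILT, 278 and 920 in Csf2-/- and wild-type lamina propria), monocyte-like cells (589 and 584, then 424 and 450), cDC2-like cells (conventional type 2 dendritic cells; 198 and 285, then 271 and 337), cDC1-like cells in SILT (38 and 84) and blood endothelial-like cells (289 and 1480, then 256 and 785). The endothelial-like cells go against the CD11b label: Itgam, the gene of CD11b, was at 1.57 and 1.93 CPM in them in Csf2-/- and wild-type SILT, against 281 and 273 CPM in macrophage-like cells. Their own marker Kdr, a receptor for vascular growth factor, was at 1473 and 1657 CPM. The cDC2-like class carried the lectin gene Cd209a at 941 to 1151 CPM in the 4 libraries, against 13.1 to 19.6 CPM in macrophage-like cells.

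Cish differed most between genotypes, and it did so in cDC2-like cells of both tissues. In Csf2-/- SILT it had 1 UMI in 198 cDC2-like cells, 0.547 CPM (0.0138 to 3.05), against 28 UMIs in 285 wild-type cells, 10.8 CPM (7.21 to 15.7). In Csf2-/- lamina propria it had 3 UMIs in 271 cells, 1.04 CPM (0.215 to 3.04), against 114 UMIs in 337 wild-type cells, 23.2 CPM (19.1 to 27.9). The level intervals do not overlap between genotypes in either tissue. The ratio was 0.0504 (0.00123 to 0.305) in SILT and 0.0449 (0.00912 to 0.134) in lamina propria, which is a wild-type level 19.8-fold (3.28 to 811) and 22.3-fold (7.44 to 110) that of Csf2-/- cells. Among all genes measured, ordered from the lowest ratio, Cish stood at place 17 of 9071 in SILT and 13 of 10280 in lamina propria.

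The wild-type UMIs of Cish were spread over many cells: they lay in 21 cDC2-like cells in SILT, with at most 4 in 1 cell, and in 61 in lamina propria, with at most 13. The median depth was 9367.5 UMIs in Csf2-/- and 9340 in wild-type cDC2-like cells of SILT; in lamina propria it was 10869 in Csf2-/- against 14436 in wild type. As a measure of stray RNA, B cell-like cells of SILT held Cish at 5.15 CPM (0.623 to 18.6) in Csf2-/-, from 2 UMIs in 101 cells, and at 1.73 CPM (0.471 to 4.42) in wild type, from 4 UMIs in 580 cells. The wild-type interval lies below the wild-type SILT cDC2-like level, whereas the Csf2-/- interval holds it; the Csf2-/- SILT cDC2-like level lies inside the wild-type interval and just below the Csf2-/- one. The summed level of the cDC2 markers was 3499 and 3736 CPM in Csf2-/- and wild-type SILT and 3691 and 3892 CPM in Csf2-/- and wild-type lamina propria. Single markers differed more: Flt3, a receptor of dendritic cells, was at 136 and 64.7 CPM in Csf2-/- and wild-type SILT and at 164 and 105 CPM in Csf2-/- and wild-type lamina propria. The macrophage marker C1qa was at 125 and 235 CPM in Csf2-/- and wild-type SILT and at 126 and 165 CPM in Csf2-/- and wild-type lamina propria. Their part in the Cish result was not tested.

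**Figure D1:**
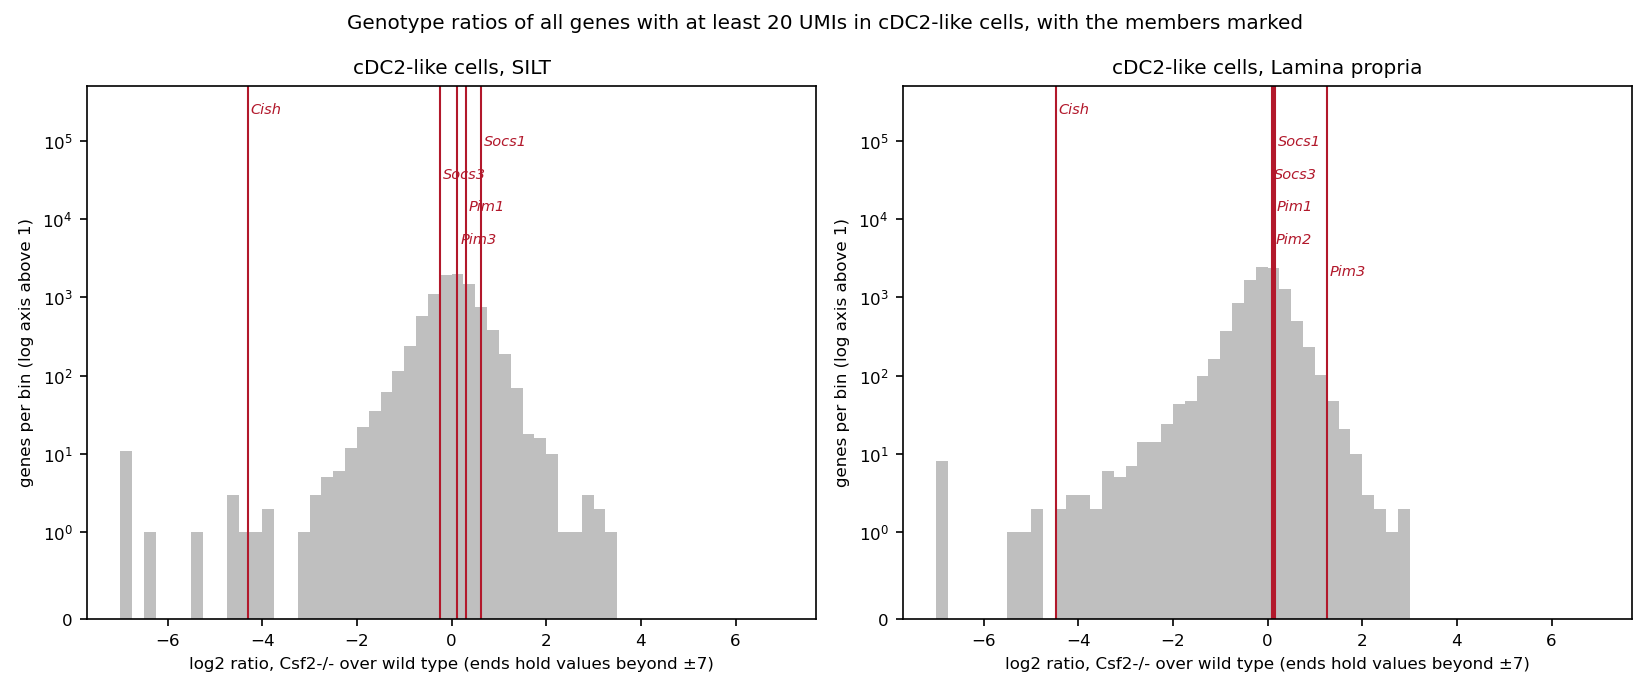
Histograms of the log2 ratio, Csf2-/- over wild type, for every gene with at least 20 UMIs in cDC2-like cells, 1 panel for each tissue, with the members marked; the vertical axis counts genes per bin on a log scale above 1. Cish lies in the far left tail of both panels at -4.31 and -4.48, while the other members marked lie in the body of the genes, with Pim3 to the right in lamina propria.

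Ccl17, a chemokine gene of dendritic cells that CSF2 and STAT5 are known to induce, went the same way (chosen after its values were seen). It had 3 UMIs in Csf2-/- against 330 in wild-type SILT cDC2-like cells, a ratio of 0.0128 (0.00263 to 0.0378), and 16 in Csf2-/- against 936 in wild-type lamina propria, a ratio of 0.0291 (0.0166 to 0.0476). Ccl17 is also among the leading genes of the cDC2-like cluster, so its own ratio there is a description. The Cish difference was not limited to cells with Ccl17. In wild-type SILT, 58 cells with a Ccl17 UMI held Cish at 23.2 CPM (12.7 to 38.9) and 227 cells without held it at 7.08 CPM (3.87 to 11.9). In wild-type lamina propria, 82 cells with Ccl17 held 42.7 CPM (32.2 to 55.4) and 255 without held 16.1 CPM (12.2 to 20.8). The cells with Ccl17 were deeper, with a median of 10835.5 UMIs with Ccl17 against 9058 without in wild-type SILT, and 15839 with against 13967 without in wild-type lamina propria. Among cells without a Ccl17 UMI in SILT, the Csf2-/- library had 1 Cish UMI in 195 cells, 0.557 CPM (0.0141 to 3.10). Wild-type SILT had 14 in 227 such cells. These are too few for a ratio by the floor, but the 2 level intervals do not overlap. In lamina propria there were 2 in 266 Csf2-/- cells against 58 in 255 wild-type cells, a ratio of 0.0444 (0.00525 to 0.168). This split was chosen after the data were seen.

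**Figure D2:**
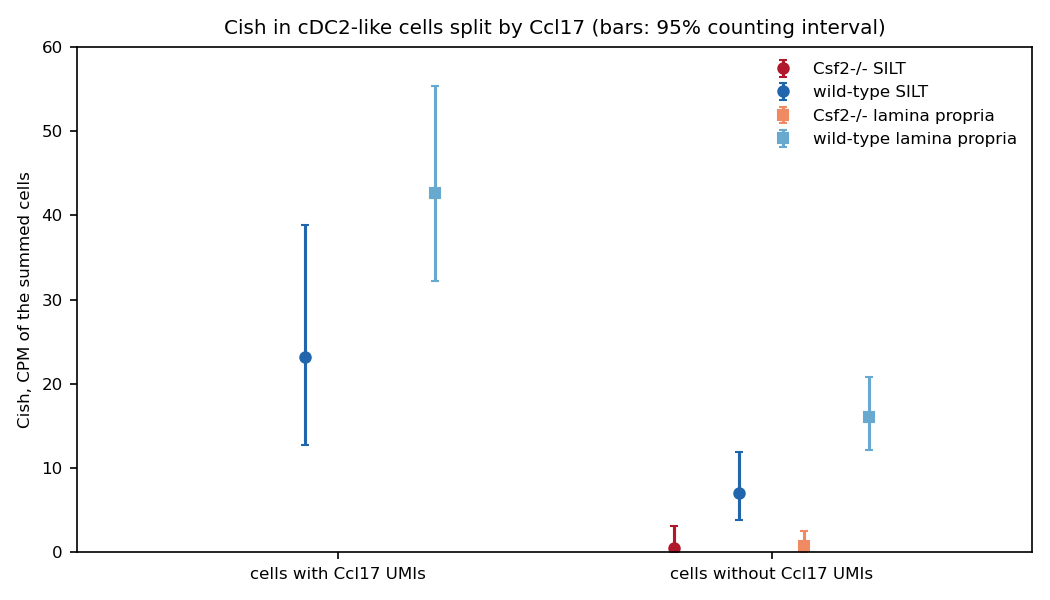
Cish level in CPM of cDC2-like cells with and without a Ccl17 UMI, by library; points are sums over the cells and bars 95% counting intervals. The wild-type points without Ccl17 lie at 7.08 CPM in SILT and 16.1 CPM in lamina propria, above the Csf2-/- points at 0.557 and 0.714 CPM. The Csf2-/- cells with Ccl17, 3 in SILT and 5 in lamina propria, were too few and are not drawn.

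In macrophage-like and monocyte-like cells Cish was scarce. In lamina propria macrophage-like cells it had 1 UMI in Csf2-/-, 0.359 CPM (0.00909 to 2.0), against 29 in wild type, 2.40 CPM (1.61 to 3.45), and the ratio was 0.149 (0.00366 to 0.901). That wild-type level lies inside the interval of wild-type SILT B cell-like cells, so it is not shown to be above stray RNA. The B cell-like cells are from another library, as wild-type lamina propria held only 3 of them. The 29 UMIs lay in 17 cells, with 8 in 1 cell; when libraries were clustered separately, where the Csf2-/- class held 145 cells of which 3 were in the class used here, the log2 ratio was 0.64. In SILT macrophage-like cells there were 2 UMIs in Csf2-/- against 11 in wild type, too few for a ratio by the floor, at 0.441 and 1.11 CPM. In lamina propria monocyte-like cells it had 8 UMIs in Csf2-/- against 23 in wild type, at 2.13 and 4.74 CPM, a ratio of 0.449 (0.174 to 1.04) whose interval includes 1. In SILT monocyte-like cells there were 5 UMIs in Csf2-/- against 9 in wild type, and in SILT cDC1-like cells 0 in Csf2-/- against 3 in wild type, where 0 UMIs allow up to 5.78 CPM. Summed over the 4 myeloid and dendritic classes, Cish was at 0.746 CPM in Csf2-/- and 2.91 CPM in wild-type SILT, a ratio of 0.256 (0.105 to 0.544). It was at 1.20 CPM in Csf2-/- against 7.60 CPM in wild-type lamina propria, a ratio of 0.158 (0.0802 to 0.284).

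Blood endothelial-like cells held Cish in both genotypes. It was at 23.2 CPM (17.7 to 30) in Csf2-/- and 16.0 CPM (13.7 to 18.5) in wild-type SILT, a ratio of 1.46 (1.06 to 1.97), and at 20.6 CPM (15.2 to 27.3) in Csf2-/- against 21.8 CPM (18.7 to 25.2) in wild-type lamina propria, a ratio of 0.947 (0.674 to 1.31). Csf2ra, which encodes the receptor chain specific to CSF2, was low there, at 2.76 and 2.93 CPM in Csf2-/- and wild-type SILT and 3.44 and 3.32 CPM in Csf2-/- and wild-type lamina propria. In cDC2-like cells Csf2ra was at 172 and 134 CPM in Csf2-/- and wild-type SILT and at 200 and 195 CPM in Csf2-/- and wild-type lamina propria. The part of the receptor chains in the Cish levels was not tested. In macrophage-like cells Csf2ra was at 140 CPM in Csf2-/- against 96.3 CPM in wild-type SILT, a ratio of 1.46 (1.32 to 1.61). It was at 157 CPM in Csf2-/- against 100 CPM in wild-type lamina propria, a ratio of 1.56 (1.40 to 1.74). Csf2rb, the signalling chain, was at 159 CPM in Csf2-/- against 205 CPM in wild-type lamina propria cDC2-like cells, a ratio of 0.777 (0.694 to 0.869). It was at 141 CPM in Csf2-/- against 108 CPM in wild-type lamina propria macrophage-like cells, 1.31 (1.17 to 1.47). Csf2rb has the near copy Csf2rb2, with which it may share reads, so both are uncertain.

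Socs2, best known as a brake on growth hormone signalling, was low in myeloid cells, and in macrophage-like cells its ratio was below 1. Its wild-type levels there are not shown to lie above stray RNA: wild-type SILT B cell-like cells had 3.02 CPM (1.21 to 6.23), an interval that holds both. For the lamina propria level this is a measure from another library. In SILT it had 3 UMIs in 394 Csf2-/- macrophage-like cells, 0.662 CPM (0.136 to 1.93), against 40 in 989 wild-type cells, 4.03 CPM (2.88 to 5.49). The ratio was 0.164 (0.0325 to 0.515), and the wild-type UMIs lay in 34 cells with at most 3 each; under other settings the log2 ratio, -2.61 here, ran from -3.10 to -1.57. In lamina propria it had 2 UMIs in Csf2-/-, 0.718 CPM (0.0870 to 2.59), against 34 in wild type, 2.82 CPM (1.95 to 3.94), a ratio of 0.255 (0.0297 to 0.995). When libraries were clustered separately, the lamina propria log2 ratio was 0.18. Socs2 stood at place 66 of 11475 genes from the lowest ratio in SILT and 117 of 11580 in lamina propria. Within the Mmp13-led cluster of the class it had 1 UMI in Csf2-/- against 23 in wild-type SILT, a ratio of 0.0737 (0.00179 to 0.454); within the Lyve1-led cluster there were 2 in Csf2-/- against 17 in wild type, below the floor.

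In the dendritic classes Socs2 had 1 UMI in Csf2-/- against 7 in wild-type SILT and 3 in Csf2-/- against 12 in wild-type lamina propria cDC2-like cells, and 0 in Csf2-/- against 8 in wild-type SILT cDC1-like cells, each below the floor. In the cDC1-like cells the level was 0 CPM (0 to 7.11) in Csf2-/- and 7.33 CPM (3.16 to 14.4) in wild type, and these intervals overlap. The 8 wild-type UMIs lay in 4 cells, with 4 in 1 cell. Monocyte-like cells had 8 in Csf2-/- against 14 in wild-type SILT, 0.584 (0.212 to 1.49), and 8 in Csf2-/- against 16 in wild-type lamina propria, 0.646 (0.239 to 1.6), with intervals that include 1, and the SILT value changed sign under 3 alternatives. Endothelial-like cells held the gene at far higher levels: 213 CPM (195 to 232) in Csf2-/- and 217 CPM (208 to 225) in wild-type SILT, a ratio of 0.983 (0.894 to 1.08). They had 246 CPM in Csf2-/- against 199 CPM in wild-type lamina propria, 1.24 (1.12 to 1.36). Endothelial markers, 10 genes, moved with Socs2 in macrophage-like cells: their summed level there was 50.9 CPM with 9 of 10 detected in Csf2-/- and 188 CPM with 10 of 10 in wild-type SILT, and 65.3 CPM in Csf2-/- against 111 CPM in wild-type lamina propria. In SILT cDC1-like cells these markers were at 48.2 CPM in Csf2-/- against 408 CPM in wild type. Their part in the Socs2 result was not tested.

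Socs1, which encodes an inhibitor of JAK activity, had a SILT ratio above 1 in the 4 compared classes with enough UMIs. The ratios ran from 1.47, under the fold of 1.5, to 1.76, and only some intervals leave out 1. Macrophage-like cells had 33 UMIs in Csf2-/-, 7.28 CPM (5.01 to 10.2), against 41 in wild type, 4.13 CPM (2.97 to 5.61), a ratio of 1.76 (1.08 to 2.85). Monocyte-like cells had 10.4 CPM in Csf2-/- against 6.36 CPM in wild type, 1.63 (0.968 to 2.81), cDC2-like cells 6.56 CPM in Csf2-/- against 4.26 CPM in wild type, 1.54 (0.622 to 3.85), and endothelial-like cells 26.0 CPM in Csf2-/- against 17.7 CPM in wild type, 1.47 (1.09 to 1.95). With every cell thinned to 1000 UMIs the SILT monocyte-like log2 ratio was -0.28. In lamina propria the ratios were 0.788 (0.358 to 1.56), 1.49 (0.905 to 2.48), 1.11 (0.568 to 2.13) and 1.23 (0.852 to 1.75) in the same order of classes, all with intervals that include 1.

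Socs3, abundant in the myeloid classes, differed little there and more in endothelial-like cells. It was at 223 CPM in Csf2-/- against 264 CPM in wild-type SILT cDC2-like cells, 0.846 (0.746 to 0.958). It was at 194 CPM in Csf2-/- against 229 CPM in wild-type SILT monocyte-like cells, 0.848 (0.769 to 0.935). Macrophage-like cells had 164 CPM in Csf2-/- against 138 CPM in wild-type SILT, 1.19 (1.09 to 1.30). They had 178 CPM in Csf2-/- against 180 CPM in wild-type lamina propria, 0.988 (0.894 to 1.09). No myeloid or dendritic ratio of Socs3 with enough UMIs reached 1.5-fold either way. Endothelial-like cells had 155 CPM (141 to 172) in Csf2-/- against 110 CPM (104 to 117) in wild-type SILT, 1.41 (1.25 to 1.58). They had 218 CPM (199 to 238) in Csf2-/- against 125 CPM (117 to 133) in wild-type lamina propria, 1.74 (1.56 to 1.94), and the level intervals do not overlap in either tissue. Immediate early and heat-shock genes, 19 genes that respond to tissue handling, had a median log2 ratio of 0.14 in SILT and 0.35 in lamina propria endothelial-like cells, and of 0.09 and 0.07 in macrophage-like cells; whether handling bears on Socs3 was not tested.

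Pim1, whose kinase promotes survival and growth of blood cells, had a ratio above 1 in 5 of 5 classes in SILT, from 1.21 to 2.03, and in 4 of 4 in lamina propria, from 1.09 to 1.59. It reached 1.5-fold in macrophage-like, monocyte-like and endothelial-like cells of SILT and in endothelial-like cells of lamina propria. In cDC2-like cells it stood only at place 2532 of 9071 genes from the highest ratio in SILT and 3280 of 10280 in lamina propria. In SILT macrophage-like cells it was at 185 CPM (173 to 198) in Csf2-/- and 91.4 CPM (85.6 to 97.6) in wild type, and in SILT endothelial-like cells at 67.3 CPM (57.6 to 78.2) in Csf2-/- against 33.2 CPM (29.9 to 36.8) in wild type. Monocyte-like cells had 642 CPM in Csf2-/- against 415 CPM in wild-type SILT, 1.54 (1.45 to 1.65). They had 659 CPM in Csf2-/- against 507 CPM in wild-type lamina propria, 1.30 (1.23 to 1.37). The dendritic classes had the smallest ratios, cDC2-like cells having 683 CPM in Csf2-/- against 551 CPM in wild-type SILT, 1.24 (1.15 to 1.34). They had 781 CPM in Csf2-/- against 718 CPM in wild-type lamina propria, 1.09 (1.03 to 1.15).

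The macrophage-like class was also taken apart, by clusters chosen after the data were seen. It holds a cluster led by Lyve1 and a cluster led by Mmp13, and the Mmp13-led cluster made up 51.5% of it in Csf2-/- and 36.4% in wild-type SILT, and 31.3% in Csf2-/- and 11.4% in wild-type lamina propria. Within the Lyve1-led cluster Pim1 was at 87.0 CPM in Csf2-/- against 54.8 CPM in wild-type SILT, a ratio of 1.59 (1.29 to 1.95), and within the Mmp13-led cluster at 242 CPM in Csf2-/- against 130 CPM in wild type, 1.87 (1.67 to 2.08). With both clusters at equal weight the SILT ratio was 1.78, against 2.02 for the class sum. In lamina propria the Lyve1-led cluster had 86.5 CPM in Csf2-/- against 94 CPM in wild type, 0.919 (0.764 to 1.10), and the Mmp13-led cluster 202 CPM in Csf2-/- against 151 CPM in wild type, 1.33 (1.12 to 1.59), while the class sum gave 135 CPM in Csf2-/- against 103 CPM in wild type, 1.30 (1.16 to 1.46). The larger cluster of lamina propria had no higher level in Csf2-/- cells. For pathway genes outside the members, macrophage-like values are class sums, and the part of this mix of clusters in them was not tested. All endothelial-like values, among them those of Pim1 and Socs3, are also sums over several clusters. A cluster led by Apln gave 11 of 289 Csf2-/- and 207 of 1480 wild-type endothelial-like cells of SILT. One led by Gja5 gave 47 of 256 Csf2-/- and 68 of 785 wild-type cells of lamina propria. The part of this mix was not tested either. Outside the classes compared, Pim1 was at 414 CPM in Csf2-/- against 273 CPM in wild-type SILT plasma cell-like cells, 1.52 (1.41 to 1.64). It was at 201 CPM in Csf2-/- against 181 CPM in wild-type SILT B cell-like cells, 1.11 (0.860 to 1.42).

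**Figure D3:**
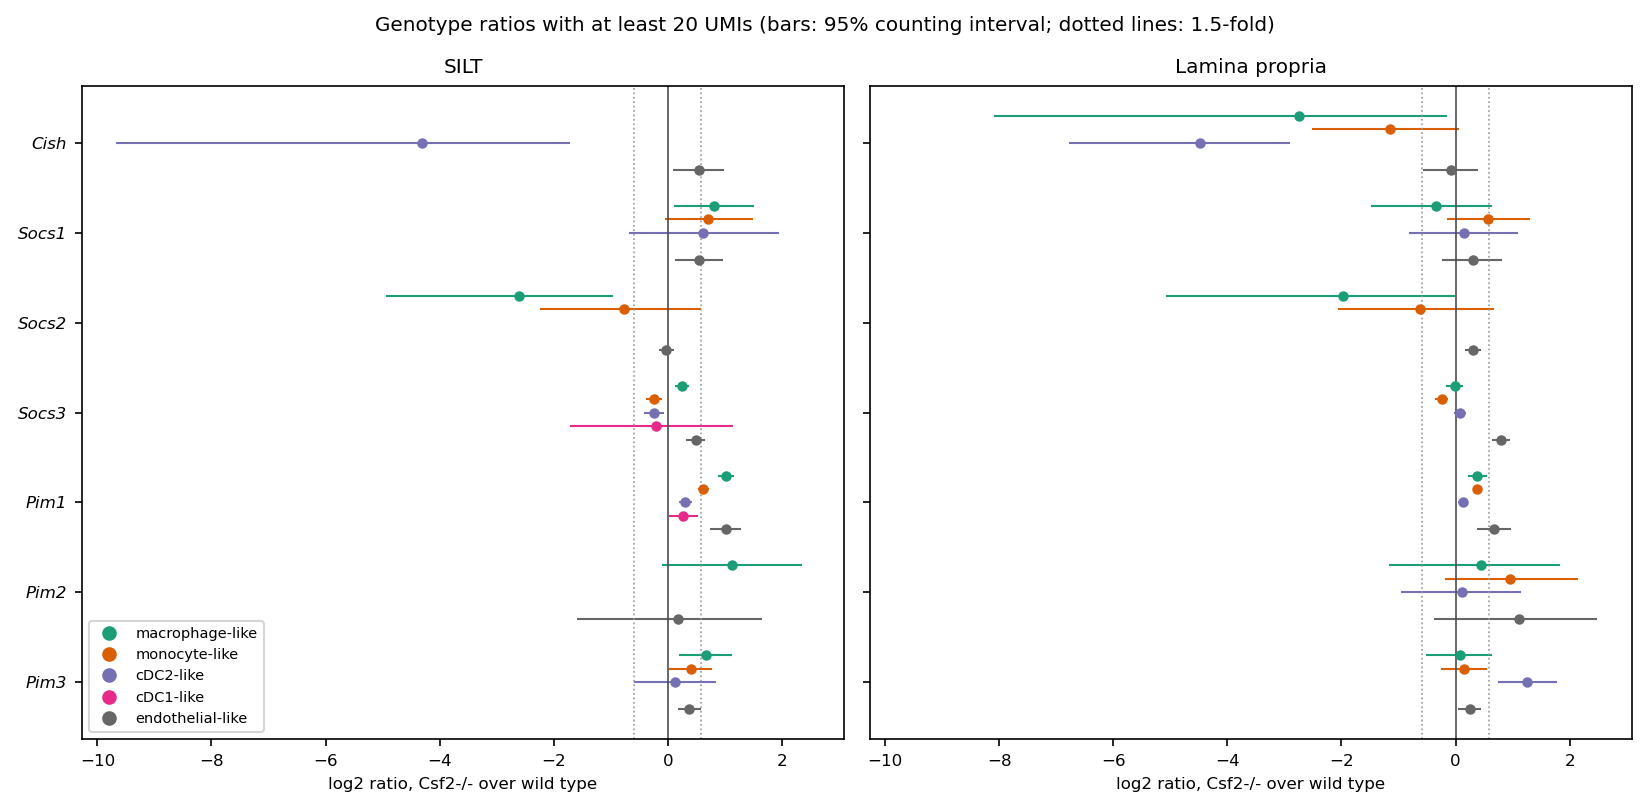
Genotype ratios of the members on a log2 scale, Csf2-/- over wild type, 1 panel for each tissue and 1 colour for each class; bars are 95% counting intervals and dotted lines mark 1.5-fold. Pim1 lies right of 0 in all 9 values, and Cish lies far left in cDC2-like cells of both tissues while its endothelial-like values lie near 0 or right of it.

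The ratio of Pim3 was above 1 in 4 of 4 classes in each tissue by class sums. In lamina propria macrophage-like cells it was 1.06 (0.701 to 1.56) by the class sum and 0.862 with both clusters at equal weight, which turns the direction. In lamina propria cDC2-like cells 80 Csf2-/- UMIs lay in 55 cells, a class level of 27.7 CPM (22.0 to 34.5), against 57 wild-type UMIs in 49 cells, 11.6 CPM (8.78 to 15), a ratio of 2.39 (1.68 to 3.42) and place 83 from the highest of 10280 genes. Among cells without a Ccl17 UMI the ratio was 2.19 (1.49 to 3.26). With every cell thinned to 1000 UMIs the log2 ratio, 1.26 here, was 0.32, under the fold of 1.5, and that of lamina propria monocyte-like cells turned to -0.62. In SILT the same class had 16.9 CPM in Csf2-/- against 15.5 CPM in wild type, 1.09 (0.662 to 1.79). Macrophage-like cells had 15.7 CPM in Csf2-/- against 9.88 CPM in wild-type SILT, 1.59 (1.15 to 2.17), but within the Lyve1-led cluster 9.60 CPM in Csf2-/- against 8.31 CPM in wild type, 1.16 (0.607 to 2.1). Monocyte-like cells had 35.3 CPM in Csf2-/- against 26.7 CPM in wild-type SILT, 1.32 (1.02 to 1.72), and endothelial-like cells 105 CPM in Csf2-/- against 81.0 CPM in wild-type SILT, 1.30 (1.13 to 1.5). They had 117 CPM in Csf2-/- against 98.1 CPM in wild-type lamina propria, 1.19 (1.03 to 1.37).

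Pim2 was near the limit of detection in these classes, and no Pim2 ratio in them had an interval that left out 1. It had 13 UMIs in each library of SILT macrophage-like cells, 2.87 CPM in Csf2-/- and 1.31 CPM in wild type, a ratio of 2.19 (0.934 to 5.12). In lamina propria monocyte-like cells it had 18 in Csf2-/- against 12 in wild type, 1.94 (0.883 to 4.41), and in lamina propria endothelial-like cells 8 in Csf2-/- against 13 in wild type, 2.15 (0.772 to 5.60). Plasma cell-like cells of SILT held more of it, 12.3 CPM in Csf2-/- against 6.99 CPM in wild type, 1.76 (1.08 to 2.80). Pim2 is X-linked, and the libraries differed in sex-linked RNA: Xist, which marks female cells, was at 582 CPM in Csf2-/- and 266 CPM in wild-type SILT and at 825 and 392 CPM in Csf2-/- and wild-type lamina propria, and the Y-linked Ddx3y was at 31.8 and 38.4 CPM in Csf2-/- and wild-type SILT and 28.1 and 58.4 CPM in Csf2-/- and wild-type lamina propria. The part of sex in these values was not tested.

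Counted by class, and read against all genes past the same floor, the members behaved as follows. In SILT macrophage-like cells 4 of 6 measured members were called higher (Socs1, Pim1, Pim2, Pim3) where 9.74% of all genes were, and 1 lower (Socs2) where 7.14% were; the median log2 ratio was 0.74 for the members and 0.06 for all genes. In SILT monocyte-like cells 2 of 5 were higher (Socs1, Pim1) against 13.3% of all genes and 1 lower (Socs2) against 6.67%. In SILT cDC2-like cells 1 of 5 was higher (Socs1) against 13.2% and 1 lower (Cish) against 9.14%. In SILT cDC1-like cells 0 of 2 were higher, against 13.9%, and 0 lower, against 13.2%, and in SILT endothelial-like cells 1 of 7 was higher (Pim1), against 12.2%, and 0 lower, against 7.94%. In lamina propria macrophage-like cells 0 of 7 were higher, against 7.71%, and 2 lower (Cish, Socs2), against 13.2%. In lamina propria monocyte-like cells 1 of 7 was higher (Pim2), against 5.80%, and 2 lower (Cish, Socs2), against 9.14%. In lamina propria cDC2-like cells 1 of 6 was higher (Pim3), against 6.61%, and 1 lower (Cish), against 12.6%, and in lamina propria endothelial-like cells 3 of 7 were higher (Socs3, Pim1, Pim2), against 7.32%, and 0 lower, against 9.01%. Over the classes this makes 8 values higher and 3 lower of 25 in SILT, and 5 higher and 5 lower of 27 in lamina propria. A count of 1 of 5 to 7 is near the share of all genes and is no result about the list; of the calls, those of Pim2, those of Socs2 and Cish in monocyte-like cells, and those of Socs1 in SILT monocyte-like and cDC2-like cells have intervals that include 1.

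**Figure D4:**
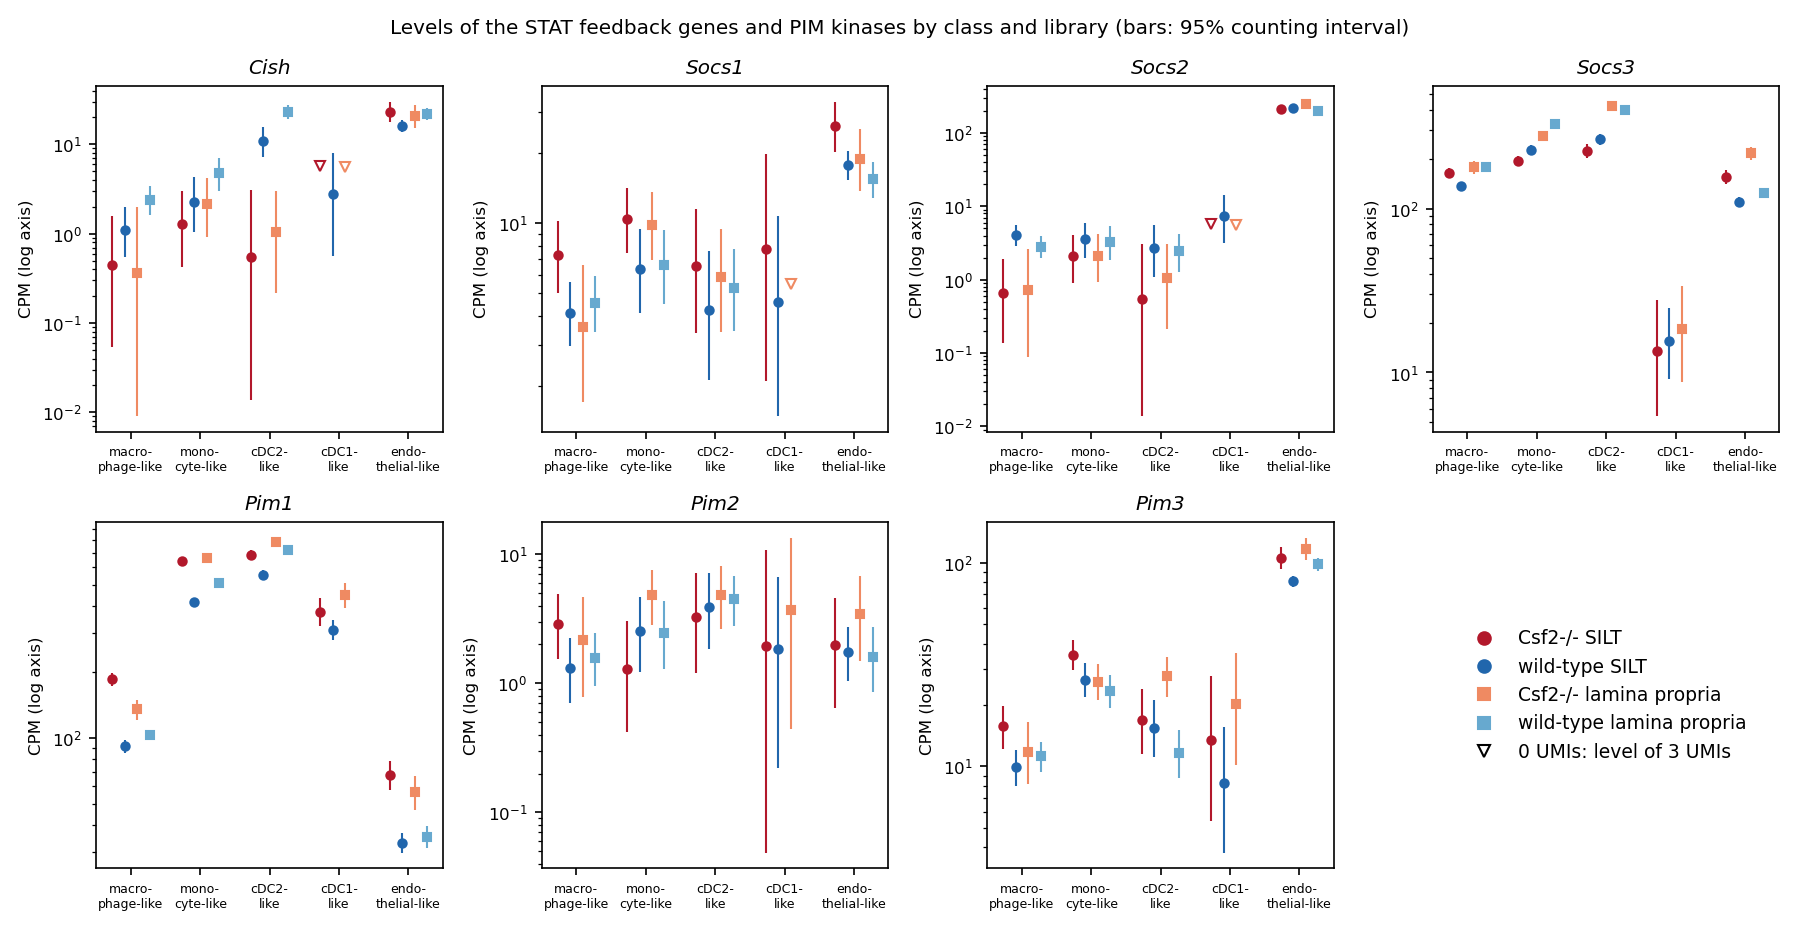
Level of each member in CPM on a log axis, by class and library, 1 panel for each gene; bars are 95% counting intervals and open triangles stand for 0 UMIs, drawn at the level of 3 UMIs. Socs2 stands highest in endothelial-like cells in all 4 libraries, Pim1 lowest there among the 5 classes, and Cish lies near 1 CPM or below in Csf2-/- cDC2-like cells.

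The order of levels over the classes is given here for the wild-type libraries. Cish was highest in lamina propria in cDC2-like cells at 23.2 CPM and endothelial-like cells at 21.8 CPM (18.7 to 25.2), which overlap in their intervals, then in monocyte-like cells at 4.74 CPM (3.0 to 7.11) and macrophage-like cells at 2.40 CPM (1.61 to 3.45), whose intervals also overlap. In SILT the endothelial-like level of 16.0 CPM and the cDC2-like level of 10.8 CPM overlap in their intervals as well. Pim1 ran in lamina propria from 718 CPM in cDC2-like and 507 CPM in monocyte-like cells to 103 CPM in macrophage-like and 35.3 CPM in endothelial-like cells, with no overlap of neighbours, and in SILT from 551 and 415 through 311 CPM in cDC1-like cells to 91.4 and 33.2 CPM. Socs3 was at 400 CPM in cDC2-like, 328 in monocyte-like, 180 in macrophage-like and 125 in endothelial-like cells of lamina propria, and at 15.6 CPM (9.07 to 24.9) in SILT cDC1-like cells. Socs1 was highest in endothelial-like cells, at 17.7 CPM in SILT and 15.4 CPM in lamina propria, and between 4.13 and 6.59 CPM in macrophage-like, monocyte-like and cDC2-like cells of both tissues, where the intervals overlap. Pim3 was at 81.0 CPM in SILT and 98.1 CPM in lamina propria endothelial-like cells, and between 9.88 and 26.7 CPM in macrophage-like, monocyte-like and cDC2-like cells. In lamina propria Pim1 and Socs3 shared the order cDC2-like, monocyte-like, macrophage-like, endothelial-like. Socs2 was at 217 CPM in SILT and 199 CPM in lamina propria endothelial-like cells and between 2.44 and 7.74 CPM in the other classes, and Pim2 was at 4.47 CPM or less in all of them.

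Between tissues, SILT against lamina propria of the same genotype, Cish in wild type and Socs3 in both genotypes were lower in SILT in cDC2-like cells. In wild type, Cish was at 10.8 CPM in SILT against 23.2 CPM in lamina propria in cDC2-like cells, a ratio of SILT over lamina propria of 0.468 (0.298 to 0.712), at 1.11 CPM in SILT against 2.40 CPM in lamina propria in macrophage-like cells, 0.462 (0.208 to 0.952), at 2.29 CPM in SILT against 4.74 CPM in lamina propria in monocyte-like cells, 0.483 (0.197 to 1.08), and at 16.0 CPM in SILT against 21.8 CPM in lamina propria in endothelial-like cells, 0.733 (0.592 to 0.909). Without Csf2 the same comparison rests on 1 UMI in SILT against 3 in lamina propria in cDC2-like cells and 2 in SILT against 1 in lamina propria in macrophage-like cells and cannot be read. For Socs3 the ratio in cDC2-like cells was 0.527 (0.470 to 0.590) in Csf2-/- and 0.659 (0.603 to 0.719) in wild type, and in monocyte-like cells 0.703 (0.639 to 0.773) in Csf2-/- and 0.699 (0.643 to 0.759) in wild type. For Pim1 in macrophage-like cells it was 1.37 (1.22 to 1.56) in Csf2-/- and 0.884 (0.810 to 0.963) in wild type. Within the Lyve1-led cluster it was 1.01 (0.793 to 1.28) in Csf2-/- and 0.583 (0.508 to 0.667) in wild type, and within the Mmp13-led cluster 1.20 (1.03 to 1.40) in Csf2-/- and 0.857 (0.746 to 0.987) in wild type. The difference between genotypes has no test, with 1 library in each group.

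Other genes of the pathway showed where the members stand. Of 12 other STAT5 targets, 10 were measured in SILT macrophage-like cells, 5 called higher (Osm, Ccnd2, Id2, Bcl6, Cebpb) against 9.74% of all genes and 0 lower against 7.14%, with a median log2 ratio of 0.56 against 0.06 for all genes. In SILT monocyte-like cells 4 of 10 were higher, against 13.3% of all genes, and 1 lower, against 6.67%. In SILT cDC2-like cells 0 of 11 were higher, against 13.2%, and 3 lower (Osm, Id2, Ccl17), against 9.14%. In lamina propria macrophage-like cells 2 of 11 were higher, against 7.71%, and 1 lower, against 13.2%. In lamina propria monocyte-like cells 3 of 10 were higher, against 5.80%, and 1 lower, against 9.14%. In lamina propria cDC2-like cells 0 of 11 were higher, against 6.61%, and 3 lower (Bcl2l1, Ccnd2, Ccl17), against 12.6%. Counts of 1 or 2 here are near the share of all genes. Bcl6, a repressor, was at 46.0 CPM in Csf2-/- against 22.9 CPM in wild-type SILT monocyte-like cells, 2.01 (1.55 to 2.62), and Cebpb, a myeloid transcription factor, at 1013 CPM in Csf2-/- against 488 CPM in wild-type lamina propria monocyte-like cells, 2.07 (1.97 to 2.18). Id2, an inhibitor of helix-loop-helix factors, was at 105 CPM in Csf2-/- against 177 CPM in wild-type SILT cDC2-like cells, 0.592 (0.497 to 0.702). Bcl2l1, the gene of the survival protein BCL-XL, had 6 UMIs in Csf2-/- against 44 in wild-type lamina propria cDC2-like cells, 0.232 (0.0810 to 0.548), and 9 in Csf2-/- against 12 in wild-type cells of SILT, 1.06 (0.394 to 2.74); it was chosen after its values were seen.

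Of the signalling parts themselves, 0 of 7 STAT genes were called in macrophage-like cells of either tissue. Of all genes, 9.74% were higher and 7.14% lower in those of SILT, and 7.71% higher and 13.2% lower in those of lamina propria. A count of 0 of 7 is near these shares and is no result about the list. In SILT monocyte-like cells 2 of 7 were higher, against 13.3% of all genes, and 1 lower, against 6.67%: Stat3 and Stat5a were higher, at 102 CPM in Csf2-/- against 67.2 CPM in wild type, 1.52 (1.30 to 1.78), and 22.9 CPM in Csf2-/- against 14.8 CPM in wild type, 1.55 (1.10 to 2.20), and Stat4 lower, at 7.80 CPM in Csf2-/- against 13.7 CPM in wild type, 0.568 (0.351 to 0.903). In SILT cDC2-like cells 2 of 7 were higher (Stat3, Stat5b), against 13.2%, and 1 lower (Stat4), against 9.14%. In SILT cDC1-like cells 4 of 6 were higher (Stat2, Stat3, Stat5a, Stat5b), against 13.9%. Jak2, the kinase of the CSF2 receptor, was lower in all 4 classes of lamina propria and in none of those classes of SILT: cDC2-like cells had 95.7 CPM in Csf2-/- against 166 CPM in wild-type lamina propria, 0.577 (0.501 to 0.662). They had 97.9 CPM in Csf2-/- against 106 CPM in wild-type SILT, 0.926 (0.762 to 1.12). Jak3 was higher in SILT macrophage-like cells, at 12.1 CPM in Csf2-/- against 6.15 CPM in wild type, 1.97 (1.34 to 2.89), and Tyk2 in SILT monocyte-like cells, at 34.0 CPM in Csf2-/- against 22.6 CPM in wild type, 1.5 (1.14 to 1.99). Of 14 other inhibitors, Socs7 was at 16.3 CPM in Csf2-/- against 7.66 CPM in wild-type SILT macrophage-like cells, 2.13 (1.53 to 2.97), Pias3 at 12.2 CPM in Csf2-/- against 5.60 CPM in wild-type SILT monocyte-like cells, 2.18 (1.29 to 3.80), and Socs5 at 9.31 CPM in Csf2-/- against 16.1 CPM in wild-type lamina propria monocyte-like cells, 0.579 (0.377 to 0.874). The 5 subunits of the ubiquitin ligase that SOCS proteins join were called in 0 cases in macrophage-like, monocyte-like and cDC2-like cells of either tissue. Of all genes in these classes, 5.80% to 13.3% were higher and 6.67% to 13.2% lower, so 0 of 5 is near the share.

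Among receptors, Il10ra was higher in SILT monocyte-like cells, at 216 CPM in Csf2-/- against 133 CPM in wild type, 1.63 (1.46 to 1.82), and Csf3r at 74.6 CPM in Csf2-/- against 40.2 CPM in wild type, 1.86 (1.52 to 2.27). Lifr was at 150 CPM in Csf2-/- against 227 CPM in wild-type lamina propria macrophage-like cells, 0.660 (0.594 to 0.732). In cDC2-like cells its ratio was 0.533 (0.361 to 0.773) in SILT and 0.424 (0.328 to 0.541) in lamina propria, and in lamina propria endothelial-like cells 1.04 (0.958 to 1.12). Il7r was higher in lamina propria macrophage-like cells, at 65.7 CPM in Csf2-/- against 23.5 CPM in wild type, 2.79 (2.31 to 3.37), and lower in cDC2-like cells of both tissues, 0.544 (0.387 to 0.754) in SILT and 0.429 (0.331 to 0.551) in lamina propria. Csf2rb2 was at 53.9 CPM in Csf2-/- against 35.4 CPM in wild-type lamina propria macrophage-like cells, 1.52 (1.26 to 1.84). Its lamina propria ratio was below 1 in monocyte-like cells, 0.611 (0.462 to 0.802), and in cDC2-like cells, 0.720 (0.543 to 0.946). In endothelial-like cells it was 2.33 (1.02 to 5.11), from 12 UMIs in Csf2-/- against 18 in wild type. Of 12 other STAT3 targets, 2 of 11 measured were higher in SILT macrophage-like cells, against 9.74% of all genes, and 3 of 11 in those of lamina propria, against 7.71%. In SILT monocyte-like cells 1 of 10 was higher, against 13.3%. That gene was Sbno2, at 93.8 CPM in Csf2-/- against 44.5 CPM in wild-type SILT monocyte-like cells, 2.11 (1.75 to 2.54). In lamina propria macrophage-like cells Il1rn had a ratio of 3.07 (1.99 to 4.72) and Il10 of 2.06 (1.37 to 3.05). All lamina propria macrophage-like ratios of this paragraph are class sums. The Mmp13-led cluster made up 31.3% of that class in Csf2-/- and 11.4% in wild type, and its part in these ratios was not tested. Of 8 PIM kinase substrates, 0 were called in SILT macrophage-like cells, where 9.74% of all genes were higher and 7.14% lower. In those of lamina propria Myc, 1.73 (1.17 to 2.53), and Cdkn1a, 1.68 (1.45 to 1.94), were higher, which is 2 of 8 against 7.71%. There 0 were lower, against 13.2%. In lamina propria monocyte-like cells Cdkn1b was lower, 0.636 (0.560 to 0.720), which is 1 of 8 against 9.14%, and 0 were higher, against 5.80%. Counts this small are no result about the list.

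Genes with the most similar levels were looked up over 30 sums of 12 classes in the 4 libraries, among 6066 genes, by Pearson correlation of log2(CPM + 10); the sums share libraries and depth, so this is a description. The nearest to Cish were Rasgrf2 (0.83), Wars (0.80) and Rgs5 (0.78), and the nearest to Pim1 were Selplg (0.93), Cytip (0.90) and Snx20 (0.90). Socs2 lay nearest to Dab2ip (0.91), Yes1 (0.90) and Ccser2 (0.89), and Socs3 to Crtc3 (0.84), Ier3 (0.84) and Ids (0.81). Socs1 lay nearest to Ly6a (0.79), Pim2 to Pou2af1 (0.75) and Pim3 to Mcf2l (0.89).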

How the data were processed

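The authors deposited raw counts of unique molecular identifiers (UMIs) per gene and cell barcode, made with the 10x 3' kit, version 2 per the labels. The submitters' processing notes name Cell Ranger 2.1.1 and mm10, while the file headers name version 6.0.0 of that program; which made the counts was not settled. The values are counts and were not normalized by the authors.

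Cells needed 200 or more genes and a mitochondrial share of UMIs of 10% or less, and doublets were removed with Scrublet at a rate of 0.8% per 1000 cells (10, 136, 7 and 52 cells in Csf2-/- SILT, wild-type SILT, Csf2-/- lamina propria and wild-type lamina propria). Library totals ran from 19225644 to 67656927 UMIs. Clustering (scanpy 1.11.5, Python 3.11.15, leidenalg 0.10.2) used 2000 variable genes, 30 principal components, 15 neighbours and Leiden resolution 1 on all 4 libraries. Of 29 clusters, 18 were named, each from at least 3 markers of 1 of 22 classes at least 2-fold higher and in at least 10% of its cells; the limits that left shallow, mixed or cycling clusters unnamed were set after the data were seen. Different naming could move cells between classes. UMIs were summed per class and library. Intervals and ratios (scipy 1.17.1) were tested on simulated data.

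The members and lists were chosen with earlier results of these data known. Named were the 7 members, Csf2, Csf2ra and Csf2rb, and of each of 14 pathway lists up to 3 genes past 1.5-fold with at least 50 UMIs and the largest ratios in macrophage-like or monocyte-like cells; genes named beyond this are listed with a call or marked in the text. Alternatives changed cell filters, doublet removal, resolution, clustering genes, naming, scaling (edgeR 4.0.16 TMM factors), depth, floor and fold. One list of target genes is not reported here.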

Additional observations from a re-analysis of the deposited data

How the results depend on the processing

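Of 592 values that 52 genotype ratios took under other settings, 537 lay inside the main counting interval, 49 outside, and 6 changed the sign of a called ratio; 39 had no value. Cish in cDC2-like cells lay between -4.37 and -3.90 (log2) in SILT under the 9 alternatives that gave a value. In lamina propria it lay between -4.89 and -3.95 under 11. Pim1 in the same cells had a value under 12. An alternative gives no value where a library holds 0 UMIs of the gene. The main SILT ratio of Cish rests on 1 Csf2-/- UMI, so its narrow range is a weak check. The sign changes, as log2 ratios, were these. With each library clustered on its own, Cish in lamina propria macrophage-like cells gave 0.64, Socs2 in the same cells 0.18 and Socs2 in SILT monocyte-like cells 0.75. With cells classed by marker UMIs, the last gave 1.21. With cells thinned to 1000 UMIs it gave 0.04, Socs1 in SILT monocyte-like cells -0.28, and the Csf2-/- ratio of SILT over lamina propria for Pim3 in cDC2-like cells 0.45. Pim1 in SILT macrophage-like cells, 1.02, was 0.44 with libraries clustered separately, 0.84 with both clusters at equal weight and 0.67 within the Lyve1-led cluster, both of these last settings chosen after seeing the data. Called values were counted anew under each setting, so the counts need not hold the same values. The count of 8 SILT values called higher became 4 with libraries clustered separately, 4 by marker UMIs and 3 at a fold of 2. The 3 SILT values called lower became 5 when clustered without members and lists, 5 when thinned, 0 at a floor of 50 UMIs and 9 with no floor. The 5 lamina propria values called higher became 2 at a fold of 2 and 3 at a floor of 50 UMIs. The 5 called lower became 3 with libraries clustered separately, 3 by marker UMIs and 1 at a floor of 50 UMIs. The cause was not tested. No paired analysis was possible because each group is 1 library. Few UMIs limit Cish, Socs2 and Pim2.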

Other observations

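Some classes and clusters outside the comparisons held members at high levels. A cluster left unnamed because it mixed T cell and natural killer cell markers, led by the granzyme gene Gzma, held Cish at 48.7 CPM (26.6 to 81.7) in 44 Csf2-/- cells and 79.9 CPM (61.3 to 102) in 144 wild-type cells of SILT, a ratio of 0.609 (0.315 to 1.10). It held Pim1 at 970 CPM in Csf2-/- and 412 CPM in wild-type SILT, a ratio of 2.35 (2.0 to 2.77). An unnamed cluster led by Retnla held Cish at 18.9 CPM (13.3 to 26.0) in 126 wild-type cells of lamina propria; its Csf2-/- cells were too few to compare, 17 in lamina propria and 6 in SILT.

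Neutrophil-like cells held Pim1 at 1621 and 2077 CPM in Csf2-/- and wild-type SILT, and at 3552 and 1687 CPM in Csf2-/- and wild-type lamina propria, each from 16 to 37 cells. Migratory dendritic cell-like cells held Socs2 at 109 CPM (76.6 to 152) in 21 Csf2-/- cells and 157 CPM (135 to 182) in 94 wild-type cells of SILT. In lamina propria they held it at 171 CPM (46.6 to 438) in 2 Csf2-/- cells and 604 CPM (485 to 744) in 13 wild-type cells.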
